A study of Mus musculus with 6 samples.

Results

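This account covers 10 genes of the Notch pathway, out of 21033 gene symbols in the count table. They were taken by name, as receptors (Notch1, Notch2, Notch3), ligands (Jag1, Dll1), the DNA-binding factor Rbpj, and target genes (Hes1, Hey1, Hey2, Heyl). All 10 had a row in the table and 9 had at least 1 read. The cells were primary synovial fibroblasts, the mesenchymal cells of the joint lining and the tissue beneath it, isolated from ankle joints of hTNFtg mice. The hTNFtg allele is a transgene for human TNF that gives the mice arthritis, and the treated and the control cells both carried it. After 3 passages the cells received either 10 µM compound 33 or its vehicle, DMSO, and RNA was taken at 48 h from 3 samples of each kind. The labels give no age of the animals and do not say whether replicates came from different animals or dishes, so every p-value here reflects the spread among 6 libraries that may be technical repeats.

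Notch receptors sit in the cell membrane and are activated by Jagged or Delta-like ligands on a neighbouring cell. The bound receptor is cut by an ADAM protease and then by γ-secretase, and the released intracellular part joins RBPJ and a Mastermind coactivator on DNA to switch on genes of the Hes and Hey families. In the synovium, Notch3 signalling started by ligands on endothelial cells is known to shape the fibroblasts around blood vessels.

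RBPJ recognises the core motif TGGGAA, and CGTGGGAA is a longer, well-known form of its site. Promoter windows of 300 bases, from 250 before to 50 after the start site, were taken from RefSeq (GRCm38.p6, the assembly of mm10), and 7 of the 10 genes matched by symbol, all but Hes1, Hey1 and Heyl. Searched on both strands, CGTGGGAA occurred in 0.734% of all 32851 windows and, among these genes, only in that of Hey2. The core TGGGAA, which every CGTGGGAA contains, occurred in 25.6% of all windows. The 7 genes had 9 windows, of which 3 held the core, all from Hey2 or Rbpj. The Rbpj matches lie inside its gene body (chromosome 5, 53466152 to 53657362, plus strand), not at the outer start of that body. The matches are shown because RBPJ is the factor through which a Notch signal reaches DNA. Each is given 5′ to 3′ on the strand of its gene, with the match on either strand in capitals.
Hey2 match 1, chr10:30842972-30843001, minus strand: gcgcggtggcaTTCCCACGcctctgccaac
Hey2 match 2, chr10:30842770-30842799, minus strand: ctgggctgcagCGTGGGAAagaacctccag
Rbpj match 1, chr5:53590185-53590214, plus strand: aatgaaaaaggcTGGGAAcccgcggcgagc
Rbpj match 2, chr5:53590269-53590298, plus strand: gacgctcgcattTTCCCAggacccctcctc
The match is a description of the letters and not evidence that the factor binds there. Hey2, whose window holds CGTGGGAA on each strand, had 0 reads in all 6 libraries.

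Libraries held 1594052 to 2897207 reads. Levels are counts per 1000000 reads (CPM) of the library size scaled by the TMM method, and because the kit reads the 3′ end of each transcript, no division by gene length was made. Markers of fibroblasts were high in every library, with a summed level of 14890 to 15915 CPM with DMSO and 12468 to 14368 CPM with compound 33 over 10 genes, led by Pdpn, Col1a1 and Vim. Endothelial markers summed to 3.48 to 7.42 CPM with DMSO and 6.72 to 12.02 CPM with compound 33 over 10 genes, with Pecam1 and Tie1 at 0 reads. Leukocyte markers summed to 63.1 to 135.8 CPM with DMSO and 53.5 to 99.3 CPM with compound 33 over 9 genes, most of it Lyz2 and Cd14. In bulk samples such as these, fewer cells of a type and less RNA per cell cannot be told apart.

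The 10 genes spanned a wide range of levels. Rbpj was the most abundant in all 6 libraries (112 to 166 CPM), above Notch2 (38.7 to 76.4 CPM), with ranges that did not overlap. Notch2 exceeded Hes1 in 5 of 6 libraries, and the ranges of these neighbours overlapped because Hes1 reached 73.6 CPM in compound 33 replicate 3. Jag1 came next at 8.57 to 17.1 CPM, below every value of Hes1 and above every value of Notch3. Notch3, Notch1, Heyl, Hey1 and Dll1 followed in that order of their means, but the ranges of each pair of neighbours among them overlapped. Only Rbpj, Notch2, Hes1 and Jag1 had enough reads to be tested. The other 6 genes fell under the low-count filter and are described by their reads.

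**Figure D1:**
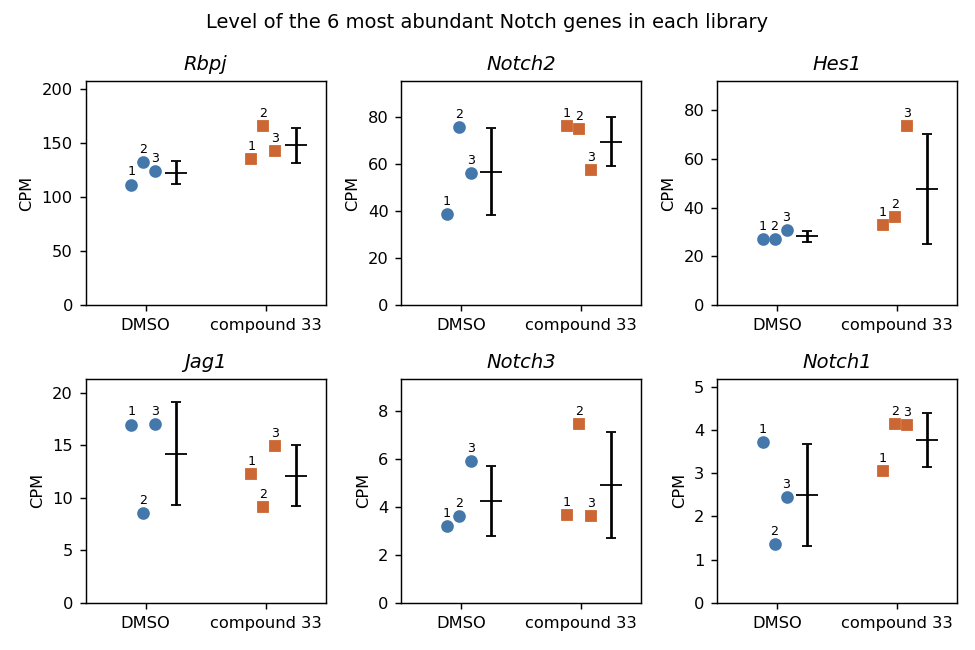
Level in CPM (vertical axis, starting at 0) of the 6 most abundant Notch genes in each library, with points numbered by replicate and the mean ± SD of 3 libraries at the right of each group. The groups do not overlap for Rbpj and Hes1, and compound 33 replicate 3 stands at 73.6 CPM for Hes1 against 33.0 and 36.1 CPM in the other compound 33 libraries.

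Among the receptors, Notch2 supplied most of the reads. Notch2, a receptor expressed in many mesenchymal cells (chromosome 3, 98013527 to 98150361, mm10, plus strand), stood at 38.7, 75.8 and 56.4 CPM with DMSO and at 76.4, 75.04 and 57.7 CPM with compound 33. The groups overlapped, and DMSO replicate 1 was the low library. Its log2 fold change was 0.29 (SE 0.26, 95% interval -0.28 to 0.85, adjusted p = 0.892 in edgeR's quasi-likelihood test), and it shrank to 0.08 without DMSO replicate 1 but grew to 0.55 when DMSO replicate 2 was left out.

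Notch3, the receptor of vascular smooth muscle cells and pericytes (chromosome 17, 32120820 to 32166852, minus strand), had 6, 8 and 17 reads with DMSO and 6, 18 and 7 with compound 33. That is 4.24 ± 1.47 CPM with DMSO and 4.91 ± 2.21 CPM with compound 33 (mean ± SD, n = 3), with 31 reads in each group. Notch1, the receptor best known from T cells and endothelium (chromosome 2, 26457903 to 26516663, minus strand), had 7, 3 and 7 reads with DMSO and 5, 10 and 8 with compound 33. At these depths only large differences would have been visible. With the low-count filter dropped, edgeR's 95% interval of the log2 fold change ran from -0.87 to 1.30 for Notch3 (estimate 0.22) and from -0.69 to 1.96 for Notch1 (estimate 0.62). The sign of the Notch3 estimate turned without compound 33 replicate 2, to -0.25. Exons of Notch1 and Notch3 overlap annotated genes on the opposite strand (0610009E02Rik and Gm13568, and Gm17276), and those of Notch2 overlap Gm42820 on the same strand. Whether the counting used strand is unknown from the sources used here, so reads of the opposite-strand pairs cannot be told apart. A strand setting would not separate Notch2 from Gm42820, and how reads in both were counted is also unknown.

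Notch4, the endothelial receptor, is not one of the 10 genes but completes the family, and it had 25 reads in all. Of the reads of the 4 receptors, Notch2 held 78.5%, 91.3% and 85.3% in the DMSO libraries. Its share was 90.6%, 86.2% and 84.2% in the compound 33 libraries. The groups overlapped, and the shares rested on 93 to 210 receptor reads per library. Their exact 95% binomial intervals (Clopper-Pearson), which cover counting error only, ran for instance from 68.8% to 86.3% in DMSO replicate 1 and from 86.3% to 94.9% in DMSO replicate 2.

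**Figure D2:**
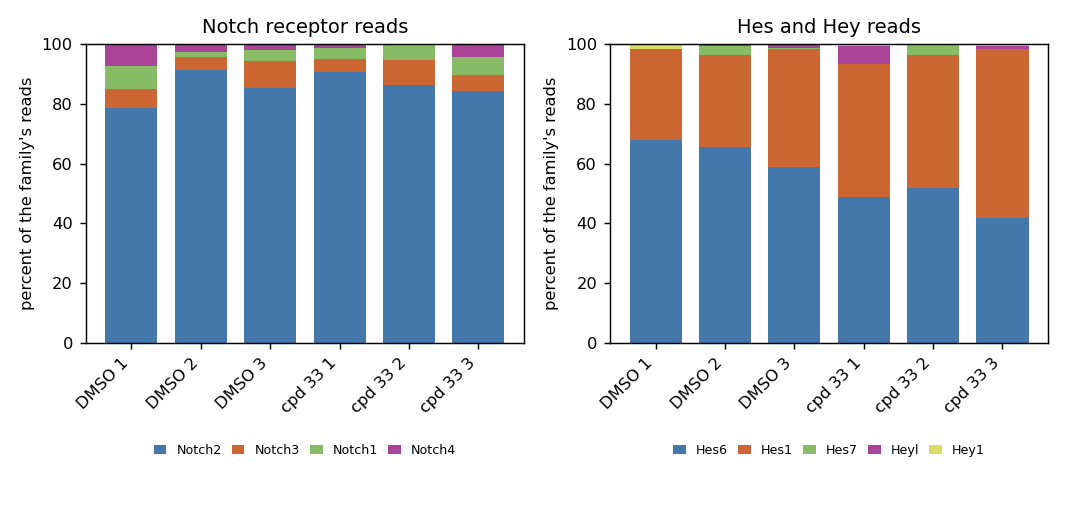
Share of each gene (percent, vertical axis from 0 to 100) in the reads of the 4 Notch receptors at the left and of the Hes and Hey genes at the right, 1 bar per library. Notch2 fills 78.5% to 91.3% of every receptor bar, and Hes1 fills 30.4% to 39.4% of the Hes and Hey reads with DMSO and 44.6% to 56.5% with compound 33.

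Of the Jagged and Delta-like ligands, Jag1 supplied nearly all reads. Jag1, or Jagged1, a ligand that activates Notch on neighbouring cells (chromosome 2, 137081456 to 137116644, minus strand), stood at 17.0, 8.57 and 17.1 CPM with DMSO and at 12.2, 9.12 and 14.9 CPM with compound 33. DMSO replicate 2 and compound 33 replicate 2 were the low libraries, and the groups overlapped. Its log2 fold change was -0.24 (SE 0.36, 95% interval -1.03 to 0.54, edgeR adjusted p = 0.940), and with each library left out it ran from -0.49 without DMSO replicate 2 to -0.06 without compound 33 replicate 2. Dll1, a Delta-like ligand (chromosome 17, 15367354 to 15376872, minus strand), had 1 read in DMSO replicate 2 and 2 in compound 33 replicate 1 and was otherwise at 0. Its exons overlap A930024N18Rik on the opposite strand. Dll4, the main endothelial ligand, and Jag2 had 0 reads in every library, where a count of 0 allows up to 1.04 to 1.83 CPM depending on the library (3 reads per library, counting error only). Jag1 therefore held between 87.0% and 100% of the reads of the 5 ligands Jag1, Jag2, Dll1, Dll3 and Dll4 in each library, on 20 to 50 ligand reads.

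Rbpj, the factor that carries the Notch signal to DNA and represses the same genes when no signal is present (chromosome 5, 53466152 to 53657362, plus strand), stood at 112, 133 and 124 CPM with DMSO. With compound 33 it stood at 136, 166 and 143 CPM, so all treated libraries lay above all controls. The distance between the nearest libraries was small, and with library totals as the only scaling the groups overlapped. Its log2 fold change was 0.27 (SE 0.20, 95% interval -0.16 to 0.70, edgeR adjusted p = 0.877), and it did not pass. Rbpj has annotated processed pseudogenes, Rbpj-ps1 and Rbpj-ps3, and neither has a row in the count table. Since the sources used here do not say how reads shared with such copies were counted, the count of Rbpj is uncertain.

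The genes whose profile across the 6 libraries was most like that of Rbpj were Lbr, Rnf139 and Ube3b, with a root mean square difference of centred log2 CPM of 0.05, 0.07 and 0.07 among 6664 genes with at least 20 CPM. Lbr encodes a receptor of the inner nuclear membrane, and Rnf139 and Ube3b encode ubiquitin ligases. With so many genes and so few libraries, close profiles are a description only.

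Hes1 had the largest estimate of the 4 tested genes. Hes1, a basic helix-loop-helix repressor and the most widely used readout of Notch activity (chromosome 16, 30064384 to 30067796, plus strand), stood at 27.0, 27.1 and 31.0 CPM with DMSO and at 33.0, 36.1 and 73.6 CPM with compound 33. All treated libraries lay above all controls, but 2 of them lay just above and compound 33 replicate 3 far above. The fitted log2 fold change was 0.74 (SE 0.31, 95% interval 0.08 to 1.41), a 1.67-fold higher level. Before adjustment p was 0.0307, and it did not pass over all genes (edgeR adjusted p = 0.697).

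The size of the Hes1 estimate rested on compound 33 replicate 3. Without that library the log2 fold change was 0.29, with an unadjusted p of 0.274 in edgeR over all genes (adjusted p = 0.927). With any other library left out the log2 fold change was 0.71 to 0.94. The unadjusted p in edgeR was then 0.0536, 0.0635 and 0.0521 without DMSO replicate 1, 2 or 3. It was 0.0120 and 0.0174 without compound 33 replicate 1 or 2. In limma-voom on all 6 libraries the unadjusted p was 0.0566. The count of 143 reads in compound 33 replicate 3 has an exact 95% Poisson interval of 62.0 to 86.7 CPM, apart from the intervals of the other 5 libraries. In contrast, compound 33 replicate 1 (24.8 to 43.1 CPM) and DMSO replicate 3 (24.9 to 38.1 CPM) were not distinguishable at this depth. These intervals cover counting error only. For Hes1 the authors' deposited table holds 0.75 on the log2 scale with an SE of 0.35 and an adjusted p of 0.826.

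**Figure D3:**
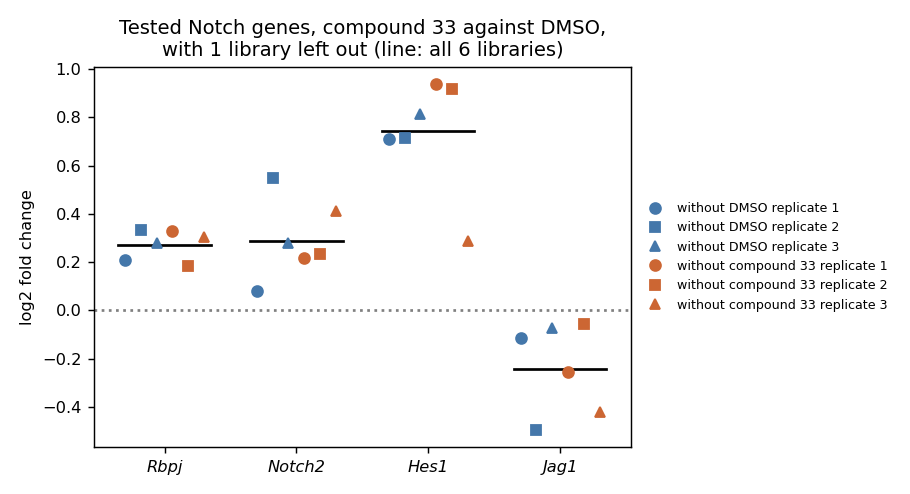
Log2 fold change of compound 33 against DMSO (vertical axis) for the 4 tested genes with each library left out in turn, with points coloured by the group of that library and a line at the estimate from all 6. The Hes1 estimate drops from 0.74 to 0.29 without compound 33 replicate 3, and the other genes keep the sign of their estimates.

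The Hey genes, the second family of Notch targets, were at or near the limit of detection. Heyl, which is expressed in vascular smooth muscle (chromosome 4, 123233556 to 123249875, plus strand), had 0, 1 and 3 reads with DMSO and 7, 0 and 2 with compound 33. With the low-count filter dropped its log2 fold change was 1.44 (95% interval -0.89 to 3.94 in edgeR), and it was -0.22 without compound 33 replicate 1, which holds 7 of the 9 treated reads. Hey1, a target in endothelial and mesenchymal cells (chromosome 3, 8663359 to 8667256, minus strand), had 3, 0 and 0 reads with DMSO and 1, 0 and 2 with compound 33. Hey2, known from heart and arteries (chromosome 10, 30832359 to 30842801, minus strand), had none in any library, where a count of 0 allows up to 1.04 to 1.83 CPM. No difference between the groups was detectable for these 3 genes at this depth.

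Within the wider Hes and Hey family, Hes6 was above Hes1 in every library but compound 33 replicate 3. Hes6, a family member known to oppose Hes1, stood at 60.4, 57.7 and 46.3 CPM with DMSO and at 36.1, 41.9 and 54.6 CPM with compound 33 (log2 fold change -0.31, SE 0.24, edgeR adjusted p = 0.888). The groups overlapped. Of all Hes and Hey reads, Hes1 held 30.4%, 30.8% and 39.4% with DMSO and 44.6%, 44.6% and 56.5% with compound 33. The exact 95% binomial intervals of the nearest libraries overlapped, at 33.0% to 46.1% in DMSO replicate 3 and 35.6% to 53.9% in compound 33 replicate 1. This share was chosen after its values were seen and was not tested. Among the other target genes, Hes7 had 14 reads in all and Nrarp 1, and Hes2, Hes3 and Hes5 had 0 in every library.

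Counted together, 0 of the 4 tested genes passed the edgeR test over all genes, where 3 of 10124 tested genes (0.0296%) passed. DESeq2 and limma-voom also passed 0 of them, where they passed 0.179% and 0.0198% of all genes with an adjusted p. At an unadjusted p under 0.05 in edgeR there was 1, Hes1, where 6.87% of all tested genes lay under that value (3.64% higher and 3.23% lower with compound 33). The groups did not overlap for 2 of the 4, Rbpj and Hes1, both higher with compound 33. Over all tested genes this held for 13.4% (6.64% higher and 6.73% lower). The median log2 fold change of the 4 genes was 0.28, beside -0.01 over all genes tested. The summed level of all 10 genes was 203 to 250 CPM with DMSO and 270 to 299 CPM with compound 33, a sum made up mostly of Rbpj and Notch2. Such sums were not tested. Of the other lists read here, the sum for Notch endocytosis and turnover also lay higher with compound 33 without overlap. The sums for fibroblast and mural cell markers lay lower without overlap, and those of the remaining lists overlapped. Without DMSO replicate 2 the median was 0.44, and without DMSO replicate 1 it was 0.15.

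**Figure D4:**
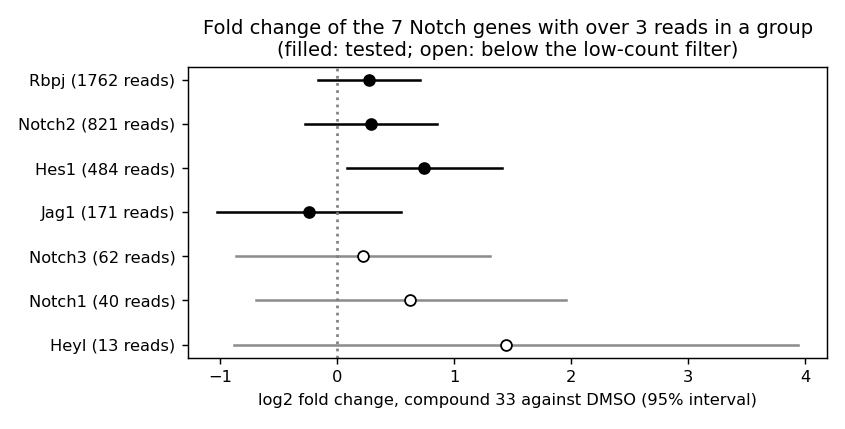
Log2 fold change of compound 33 against DMSO (horizontal axis) with its 95% interval in edgeR for the 7 Notch genes that had over 3 reads in at least 1 group, ordered by level. Filled points passed the low-count filter, and open points come from a fit without it. The interval of Hes1 runs from 0.08 to 1.41, and the other intervals include 0.

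The rest of the pathway was read from lists of the other receptors and ligands, the enzymes and cofactors around the receptor, and the other target genes. Of 59 such genes, 58 had a row in the table and 40 were tested. In edgeR 0 passed in either direction, as in DESeq2 and limma-voom, with 21 positive and 19 negative log2 fold changes and a median of 0.03. At an unadjusted p under 0.05, 4 were higher and 0 lower, where 3.64% and 3.23% of all tested genes were. The groups did not overlap for 2 of the 40, Psen2 and Dtx3l, where this held for 13.4% of all tested genes.

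The proteases that release the intracellular domain were abundant. Adam17, a sheddase that can make the first cut, stood at 277 ± 93.8 and 301 ± 65.4 CPM (mean ± SD, n = 3 per group, DMSO first), and Furin, which matures the receptor on its way to the membrane, at 249.8 ± 105.3 and 238.6 ± 61.3 CPM. Aph1a, a subunit of γ-secretase, stood at 113 ± 23.1 and 126 ± 2.85 CPM. Of 9 tested enzymes, 3 had positive and 6 negative log2 fold changes, with a median of -0.01. Psen2, one of the alternative catalytic subunits of γ-secretase, stood at 24.4, 18.9 and 19.8 CPM with DMSO and at 32.4, 31.5 and 38.1 CPM with compound 33. Its groups did not overlap, and it did not pass (log2 fold change 0.69, SE 0.25, edgeR adjusted p = 0.628). Psen2 was singled out after its values were seen.

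Among the enzymes that add sugars to the receptor, Poglut1 stood at 126 ± 5.95 and 152 ± 25.2 CPM and Pofut1 at 66.2 ± 6.62 and 71.0 ± 3.14 CPM. Rfng, a Fringe that tunes the response to the ligands, stood at 32.3 ± 2.59 and 29.2 ± 3.57 CPM, while Lfng was under the filter and Mfng had 0 reads. The median log2 fold change of the 3 tested was 0.10.

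Regulators of ligand endocytosis and receptor turnover had a median log2 fold change of 0.26 over 12 tested genes, 8 positive and 4 negative. The most abundant were Numbl (52.5 ± 19.95 and 62.9 ± 12.3 CPM), a homologue of the Notch inhibitor Numb, Dtx4 (37.1 ± 10.7 and 69.6 ± 36.7 CPM) and Mib1 (49.7 ± 4.93 and 46.2 ± 5.99 CPM), the ubiquitin ligase that activates ligands. Those under an unadjusted 0.05 in edgeR were Dtx3l and Dtx4, of the Deltex family of ubiquitin ligases, and Neurl1a, a Neuralized ligase. Dtx3l and Neurl1a were named after their values were seen. Neurl1a was low, at 5.30, 3.61 and 4.18 CPM with DMSO and 4.28, 13.3 and 9.27 CPM with compound 33, and the groups overlapped. Dtx3l stood at 20.7, 28.0 and 20.5 CPM with DMSO and at 59.3, 35.2 and 37.1 CPM with compound 33 (log2 fold change 0.92, SE 0.28, edgeR adjusted p = 0.505). Its exons overlap those of Parp9 on the opposite strand. Dtx4 stood at 42.4, 24.8 and 44.2 CPM with DMSO and at 44.0, 53.1 and 111.7 CPM with compound 33 (log2 fold change 0.90, SE 0.35, edgeR adjusted p = 0.674). Its high library was compound 33 replicate 3, as for Hes1, and the groups overlapped.

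**Figure D5:**
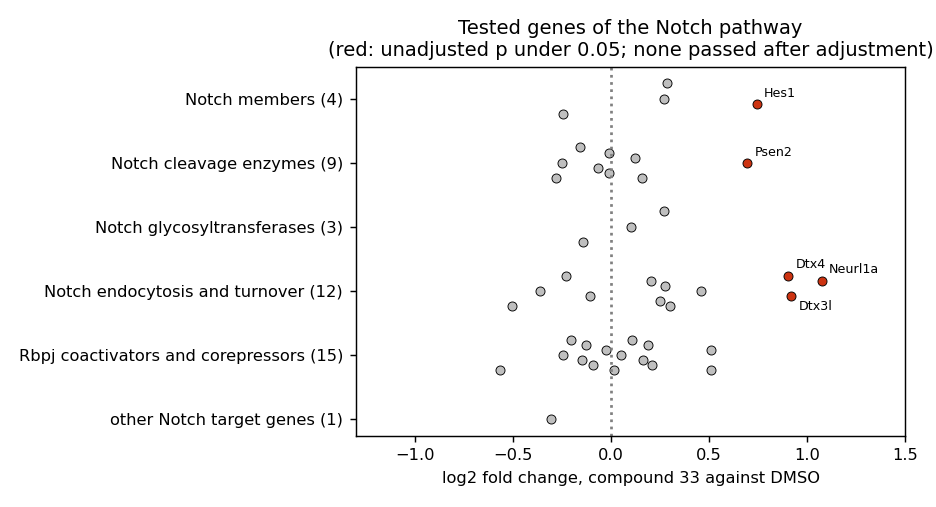
Log2 fold change of compound 33 against DMSO (horizontal axis) for the tested genes of each Notch pathway list, 1 point per gene, with the number tested in brackets and the vertical offset within a list only for legibility. Red points have an unadjusted p under 0.05 and are named, and 0 genes passed after adjustment over all genes.

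The cofactors of Rbpj were centred near 0, with 8 positive and 7 negative of 15 tested and a median log2 fold change of 0.02. Among them, the corepressor Ctbp1 stood at 194 ± 17.9 and 183 ± 17.5 CPM and the deacetylase Hdac1 at 97.8 ± 31.2 and 84.7 ± 33.3 CPM. The other receptors and ligands of the list were all under the filter, led by Dner (31 reads), Notch4 (25 reads) and Dlk1 (24 reads).

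Because Notch3 is tied to the perivascular state, markers of mural cells were read beside it. The 13 markers differed widely in level. Acta2, Tagln, Pdgfrb, Mcam, Cnn1, Ndufa4l2 and Cspg4 had enough reads to be tested, with Mcam at 553 reads in all and Ndufa4l2 at 400. Rgs5 had 23 reads in all, Abcc9 21, Des 20, Myh11 3, Kcnj8 2 and Higd1b 0. The summed level of the list was 2156 to 2938 CPM with DMSO and 1396 to 2101 CPM with compound 33, most of it Acta2, which contractile fibroblasts also make.

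Of the 7 tested markers, 0 passed in edgeR, DESeq2 or limma-voom. At an unadjusted p under 0.05 in edgeR, 2 were higher and 3 lower, where 3.64% and 3.23% of all tested genes were. The contractile genes Acta2 (log2 fold change -0.77), Cnn1 (-1.08) and Tagln (-0.78) were the lower ones, and Pdgfrb (0.62) and Cspg4 (0.70), which pericytes express, the higher ones. The lowest edgeR adjusted p was 0.505, for Cnn1. The groups overlapped for Tagln, at 119, 103 and 279 CPM with compound 33 and at 256, 319 and 282 CPM with DMSO. They did not overlap for Acta2, Cnn1, Pdgfrb and Cspg4, where this held for 13.4% of all tested genes. Among other markers of pericytes, Ndufa4l2 had a log2 fold change of -0.50 (SE 0.28, edgeR adjusted p = 0.785), and Mcam averaged 41.7 ± 17.5 CPM in the DMSO group against 42.2 ± 23.1 CPM after treatment (SD, n = 3 each). Of the markers below the filter, Rgs5 had 19 of its reads with DMSO and 4 with compound 33. Abcc9 had 19 and 2, 16 of them in DMSO replicate 3, and the groups overlapped for both. Des went the other way, with 3 reads with DMSO and 17 with compound 33. Its groups did not overlap, which without the low-count filter held for 11.3% of all genes. All but Acta2, Tagln and Pdgfrb were named after their values were seen. Whether these differences bear on the Notch genes was not tested.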

How the data were processed

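RNA of 6 samples, 3 per group, was read at the 3′ end on an Ion Proton instrument, per the labels' protocols. Per the submitters' processing notes, the build was mm10 and the tools were HISAT2 2.2.1, featureCounts 2.0.3, FastQC 0.11.9 and DESeq2. Annotation, strand setting and handling of reads with several matches are unknown from the sources used here. The authors deposited whole-number read counts per gene symbol. Their deposited comparison holds a mean normalized count (a signal over all libraries), a log2 fold change with its standard error, the Wald statistic (a score), and p-values.

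The analysis ran in R 4.3.3 (edgeR 4.0.16, limma 3.58.1, DESeq2 1.42.0). Genes were kept by filterByExpr (minimum count 10), leaving 10124 that hold over 99.4% of each library's reads. Group differences were tested by edgeR's robust quasi-likelihood F test on all 6 libraries, with no term besides group, two-sided and adjusted by Benjamini-Hochberg over all genes tested, at a threshold of 0.05. The SE is the unshrunk log2 fold change over the square root of F. The procedure was tested on simulated data. Coordinates are gene bodies from GENCODE M21 (mm10). Exon overlaps with other genes are stated beside only some of the named genes. Tagln, Ndufa4l2, Mcam, Abcc9, Adam17, Furin and Aph1a, among others, also overlap genes on the opposite strand.

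The 10 genes and the lists were chosen with earlier results of these data known. By rule, named genes were all 10, up to 3 of the most abundant genes per list, those that passed, and 3 genes with the profile nearest to the most abundant of the 10. A gene that this rule names among the Rbpj cofactors is not reported here. Other genes were named after their values were seen, as stated beside them, or because they complete a family or define a cell type. Markers were shortened for length, and the cartilage and skeletal muscle list summed to 28.2 to 40.3 CPM with DMSO and 24.7 to 35.5 CPM with compound 33. Alternatives were other scalings and filters, no robust estimation, DESeq2, limma-voom, a replicate block, and each library left out.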

Additional observations from a re-analysis of the deposited data

How the results depend on the processing

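Under every alternative run, 0 of the 10 genes and 0 of the other pathway genes passed, and the estimates of Rbpj, Notch2, Hes1 and Jag1 kept their sign. The lowest adjusted p for Hes1 was 0.522, without a low-count filter. Over all genes, 3 passed in edgeR, against 21 without a low-count filter, 18 in DESeq2, 7 with the replicate block, and 1 to 7 with each library left out. The cause of these shifts was not tested. With library totals only, 1 of the 10 genes, Hes1, had groups that did not overlap, and with each library left out 2 to 4 had (4 without DMSO replicate 2, with Notch2 and Jag1 added). With a library left out groups separate more often, and the share over all tested genes was then 21.2% to 27%, with 22.3% without DMSO replicate 2. The median log2 fold change of the 4 tested genes ran from 0.15 to 0.44 with each library left out. For genes under the filter, the estimate turned for Notch3 (range -0.25 to 0.56) and Heyl (-0.22 to 2.46).

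With the replicate number as a block, the log2 fold change of Hes1 was 0.67 (adjusted p = 0.682). The numbers were not taken as a pairing, since the labels do not say that they pair the samples. Deviations from the group means correlated across genes at -0.03, 0.21 and 0.08 for libraries numbered 1, 2 and 3. DMSO replicates 2 and 3 correlated best with the compound 33 library of the same number. DMSO replicate 1 correlated best with compound 33 replicate 3 (0.15). These values do not settle whether the samples were paired. Depth limits 6 of the 10 genes, which had 62 reads or fewer in all libraries together.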

Other observations

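Some genes of the marker lists below the low-count filter were chosen after their values were seen. In edgeR without that filter their adjusted p was 0.505 for Des, 0.770 for Rgs5 and 0.522 for Tek. Des, which encodes the muscle filament desmin, stood at 0.53, 0.45 and 0.35 CPM with DMSO and at 4.28, 2.49 and 2.06 CPM with compound 33, on 20 reads in all, and its exons overlap Gm15179 on the opposite strand. Rgs5, a pericyte marker, averaged 2.64 ± 1.54 CPM (SD, n = 3) in the DMSO libraries and 0.59 ± 0.62 CPM in the treated ones, with overlapping groups. Tek, the angiopoietin receptor, averaged 1.21 ± 0.85 CPM in the DMSO libraries and 4.46 ± 2.50 CPM in the treated ones, with overlapping groups.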
